A study of Mus musculus with 4 samples.

Results

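The mouse olfactory receptor genes, named Olfr, were examined as the autosomal regions that the authors' table of DNA methylation names for an Olfr gene. A region here is 1 line of that table, with a start, an end and 1 methylation level per library. Of 849172 regions, 1544 (0.182%) met this rule. They carry the names of 1075 genes on 17 chromosomes, and all of them had a value in every library. Another 8 Olfr regions lie on the X chromosome and were not included.

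The levels come from bisulfite sequencing of the whole genome in CA1 hippocampal tissue, from mice of strain C57B6/J aged 117 days. The study compared 2 libraries labelled Tet2+f_Camk2aCre, called Cre here, with 2 libraries labelled Tet2+f, called control here, and values are given for replicate 1 and then replicate 2 of each. Per the series text, the comparison addresses a lowered dose of Tet2, an enzyme that oxidizes 5-methylcytosine, in glutamatergic cells. Both groups carry the Tet2+f allele, and no group carries Cre without it, so an effect of Tet2 and one of Cre cannot be told apart. The promoter of Camk2a drives Cre in excitatory neurons of the forebrain, while the tissue also holds other cell types, so each level is an average over all cells. Bisulfite sequencing reads 5-methylcytosine and 5-hydroxymethylcytosine as the same signal. Whether each library is its own mouse is not stated, so a p-value here speaks of the spread among 4 libraries, part of which may be technical. Neither counts nor coverage are in the table, so the depth is unknown and no counting interval can be given.

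Olfactory receptors are G protein-coupled receptors that bind odorants on olfactory sensory neurons of the nose. They form the largest gene family of the mouse genome and lie in clusters on many chromosomes, with many near-identical neighbours and pseudogenes. Each olfactory sensory neuron transcribes a single receptor gene from 1 allele, and the other receptor genes are packed in heterochromatin. Most receptor genes are silent in hippocampal neurons, although a few, such as Olfr78 and Olfr544, are known for transcription outside the nose. Reads of near-identical copies are hard to assign, so the level of a receptor gene with a close copy is uncertain.

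The 250 bases before the annotated gene start show what a receptor gene start looks like, and 6 were chosen. Olfr16 and Olfr17 are receptors of textbook use, Olfr544 has no CpG, Olfr212 and Olfr750 have the most CpGs among the Olfr gene starts, and Olfr94 has the lowest level. The sequences are from RefSeq (assembly GRCm38.p6, which is mm10), run 5′ to 3′ on the strand of the gene, and capitals mark CpGs, the sites of most DNA methylation in mammals. They lie at chr1:172956518-172956767 (plus strand), chr6:116506266-116506515 (plus), chr7:102488308-102488557 (minus), chr7:107097217-107097466 (plus), chr14:51071443-51071692 (minus) and chr17:37197967-37198216 (minus).
Olfr16: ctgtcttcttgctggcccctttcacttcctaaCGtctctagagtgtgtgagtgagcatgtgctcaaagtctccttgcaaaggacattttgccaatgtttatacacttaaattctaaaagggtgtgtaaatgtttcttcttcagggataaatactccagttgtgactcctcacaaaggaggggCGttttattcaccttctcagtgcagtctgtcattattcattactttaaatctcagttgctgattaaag
Olfr212: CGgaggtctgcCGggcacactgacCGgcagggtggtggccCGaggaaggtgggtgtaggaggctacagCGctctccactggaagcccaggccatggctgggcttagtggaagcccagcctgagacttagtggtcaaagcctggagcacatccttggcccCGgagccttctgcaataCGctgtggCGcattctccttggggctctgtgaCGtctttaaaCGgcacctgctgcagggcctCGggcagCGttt
Olfr544: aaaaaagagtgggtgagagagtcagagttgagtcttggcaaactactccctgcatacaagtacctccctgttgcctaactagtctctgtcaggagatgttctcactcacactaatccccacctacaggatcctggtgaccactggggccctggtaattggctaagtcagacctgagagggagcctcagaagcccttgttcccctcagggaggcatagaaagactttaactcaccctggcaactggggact
Olfr17: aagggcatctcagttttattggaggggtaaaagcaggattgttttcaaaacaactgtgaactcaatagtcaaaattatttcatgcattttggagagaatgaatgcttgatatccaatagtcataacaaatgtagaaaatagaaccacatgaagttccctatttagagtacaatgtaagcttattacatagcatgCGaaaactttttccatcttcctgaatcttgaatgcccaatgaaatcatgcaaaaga
Olfr750: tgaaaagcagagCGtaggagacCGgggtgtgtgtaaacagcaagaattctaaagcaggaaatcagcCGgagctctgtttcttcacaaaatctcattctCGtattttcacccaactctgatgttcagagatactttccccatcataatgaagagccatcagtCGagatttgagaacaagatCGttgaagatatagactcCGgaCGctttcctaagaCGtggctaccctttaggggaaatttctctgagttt
Olfr94: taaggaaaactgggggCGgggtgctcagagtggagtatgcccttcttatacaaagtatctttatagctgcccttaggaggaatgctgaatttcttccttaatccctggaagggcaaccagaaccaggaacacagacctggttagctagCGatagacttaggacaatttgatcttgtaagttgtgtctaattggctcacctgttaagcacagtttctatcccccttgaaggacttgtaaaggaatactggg

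The deposited region over the Olfr16 start was at 78.2% and 77.5% in controls and at 79.1% and 77.0% with Cre. The region over the Olfr17 start was at 84.6% and 74.9% against 77.0% and 77.2%. The CpG-rich start of Olfr212 was at 94.0% in both control libraries and at 92.3% and 91.2% with Cre. Of these starts, Olfr212 had the most CpGs, 12 of them in the 250 bases, and the highest level. The start of Olfr750, with 9 CpGs, was at 60.2% and 61.7% against 58.9% and 59.95%. The start of Olfr94, with 2 CpGs, was at 40.8% and 45.5% against 39.4% and 44.0%. The groups overlapped at the starts of Olfr16, Olfr17, Olfr544, Olfr750 and Olfr94. At the start of Olfr212 both Cre libraries lay below both control libraries, a difference that did not pass the test described further on (limma adjusted p = 0.937).

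Over all annotated starts that could be matched, Olfr genes were highly methylated and poor in CpG. The window ran from 250 bases before to 50 bases after the start, and its level was that of the deposited regions it touches. The Olfr starts, 932 of them from 928 genes, averaged 79.7% and 80.2% in controls and 80.01% and 79.7% with Cre. They ranged from 42.4% to 92.9%, and 0 of 932 were under 20%. Starts of other autosomal genes, 30429 in all, averaged 45.1%, and 37.3% of them were under 20%. The Olfr windows held 1.30 CpGs on average, with a median of 1, and 306 of them (32.8%) held none. The other windows held 12.96 on average, with a median of 8, and 4.31% held none. Windows with 5 or more CpGs made up 3.65% of the Olfr starts and 64.2% of the others.

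At matched CpG number the medians of Olfr and other starts were closer where CpGs were few. With no CpG in the window, the median level was 79.7% for Olfr starts and 81.6% for others. With 1 CpG it was 80.7% and 81.3%, and with 2 to 4 CpGs it was 81.3% and 80.1%. With 5 to 9 CpGs the 32 Olfr starts had a median of 82.2%, against 71.3% for the others. Only the starts of Olfr212 and Olfr750 held 10 or more, a class in which the other starts had a median of 3.83% and 76.7% of them were under 20%. These are descriptions over starts, which are not replicates, and a region often reaches far beyond the window.

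Short motifs known from receptor gene control were counted in the same windows. The palindrome CCCNNGGG, the core of sites bound by EBF factors, was in 29 Olfr windows (3.11%) and in 14.2% of the other windows. TAATTA, a core bound by homeodomain factors such as LHX2 and EMX2, was in 174 Olfr windows (18.7%), against 4.85%. TATAAA, the TATA box, was in 381 (40.9%), against 12.8%. Both strands were searched, and the last of these can share bases with the homeodomain core. The median level of Olfr starts with and without the motif was 81.1% and 80.6% for the EBF palindrome, 80.5% and 80.7% for the homeodomain core and 80.6% and 80.5% for the TATA box. The RefSeq start of many receptor genes may be the start of the coding part, so a window need not hold the promoter.

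Across the family, the mean level was almost the same in every library. Over the 1544 Olfr regions it was 80.2% and 80.5% in controls and 80.3% and 80.1% with Cre. The control group averaged 80.4% ± 0.194 (SD, n = 2) and the Cre group 80.2% ± 0.111 (SD, n = 2), a difference of -0.158 percentage points (exact permutation test, two-sided, p = 0.667). The groups overlapped, and with 6 arrangements of 4 libraries p cannot fall under 0.333. Regions named for receptor genes that RefSeq lists as protein-coding averaged 80.3% (1507 regions) and those it lists as pseudogenes 79.8% (26 regions).

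Olfr regions differed from other regions in length, and the mean level of the family relative to the genome turned with it. The median Olfr region was 5682 bp long, with quartiles of 4103.75 and 7048.5 bp and a range of 177 to 39626 bp. Other autosomal regions had a median of 2526 bp and quartiles of 1662 and 3815 bp. Regions of 4000 bp or more made up 76.0% of the Olfr regions and 22.6% of the others. How the regions were drawn is not given in the sources used here.

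Without regard to length, the mean of Olfr regions lay 4.55 points above that of the 804536 other autosomal regions that had all values. By median Olfr regions lay below them, at 81.0% against 83.5%. The difference of means within a library was 4.67 and 4.60 points in controls and 4.48 and 4.46 points with Cre. It was positive in 4 of 4 libraries (exact sign-flip permutation test over libraries, two-sided, p = 0.125, the smallest it can give). With the other regions weighted to the lengths of the Olfr regions, Olfr regions lay below them, at 80.3% against 81.6%, a difference of -1.29 points that was negative in 4 of 4 libraries (exact sign-flip permutation p = 0.125). Against the nearest region on each side not named for an Olfr gene the mean difference was -0.332 points (exact sign-flip permutation p = 0.125). The median of these differences was 0.0255 points, with 766 Olfr regions below and 778 above their neighbours.

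The turn of the means was visible class by class. Mean levels of Olfr regions were above those of other regions in the classes under 4000 bp and below them in the longer classes. The sign was the same in 4 of 4 libraries each time (exact sign-flip permutation p = 0.125 for each of 6 classes, the smallest it can give). By median, Olfr regions already lay below other regions at 2000 to 3999 bp, at 83.7% against 84.6%. The 6 Olfr regions under 500 bp averaged 34.6%, against 11.3% for other regions, with medians of 11.6% and 0.658%. The 19 of 500 to 999 bp averaged 87.8%, against 55.4%. At 1000 to 1999 bp the means were 83.5% (75 Olfr regions) and 76.8%, and at 2000 to 3999 bp they were 82.8% (270) and 81.8%. At 4000 to 7999 bp, where most Olfr regions lie, they were 80.1% (967) and 83.0%. At 8000 bp or more they were 77.2% (207) and 80.7%.

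**Figure D1:**
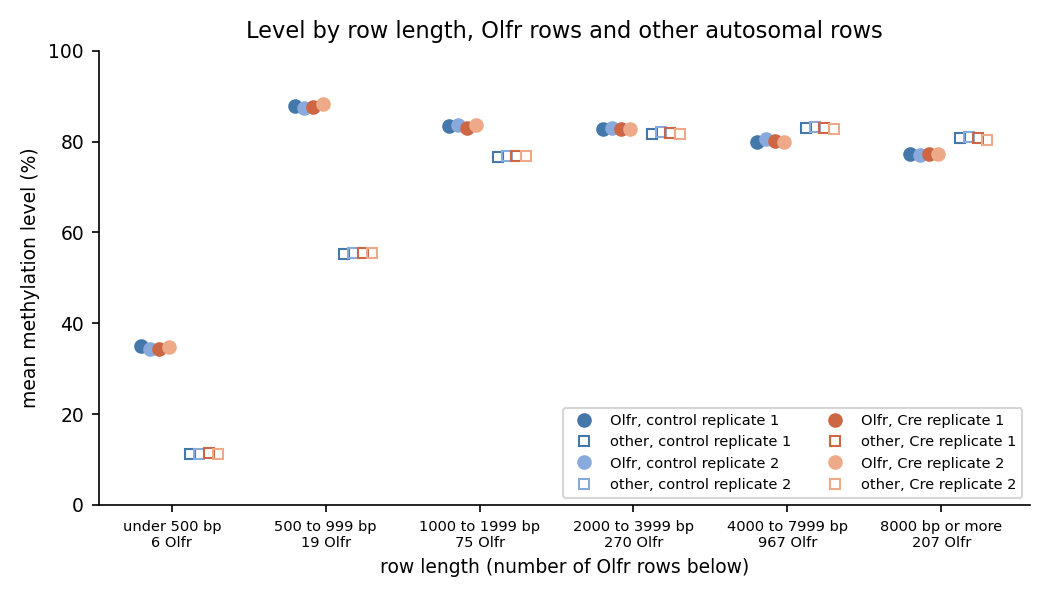
Mean methylation level in percent by region length in bp, with 1 point per library for Olfr regions (filled circles) and other autosomal regions (open squares). The 4 libraries of a class nearly coincide, and the Olfr points lie above the others under 4000 bp, by 32.4 points at 500 to 999 bp, and below them at 4000 bp or more.

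Other chemoreceptor families, also clustered and silent in most tissues, gave a closer comparison. Vomeronasal receptors detect pheromones in the vomeronasal organ. Regions named for the Vmn1r genes averaged 74.2% (275 regions) and those named for the Vmn2r genes 77.5% (655 regions). Weighted to the lengths of the Olfr regions, and with regions of 1000 bp or more only, Olfr regions lay 3.06 points above the vomeronasal ones, in 4 of 4 libraries (exact sign-flip permutation p = 0.125). Regions of the trace amine receptors, Taar, averaged 83.9% (25 regions), and those of the formyl peptide receptors, Fpr, 73.7% (27 regions).

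Levels within the Olfr family lay in a narrow band. The median region was at 81.0%, with quartiles of 77.4% and 84.1%, against a median of 83.5% for other regions. Between 70% and 90% lay 1422 Olfr regions (92.1%) and 63.4% of the others. Under 50% lay 6 Olfr regions (0.389%) and 10.2% of the others, and at 90% or more lay 52 (3.37%) and 17.5%. Among regions of 4000 bp or more, 0 of 1174 Olfr regions were under 50%, against only 0.187% of other regions of that length. Between 70% and 90% lay 95.7% of these Olfr regions and 86.9% of the others.

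The lowest regions were short and lay in 2 neighbouring genes of chromosome 17, Olfr94 and Olfr95. They were singled out after their values were seen. In Olfr94, the region of 177 bp from 37197134 to 37197310 was at 0% and 0.714% in controls and at 0% and 0.333% with Cre. Next to it, 279 bp from 37197316 to 37197594 showed 0% and 1.5% in controls, with 0% and 1.62% in the Cre group. The region before them, 469 bp from 37196642 to 37197110, was at 6.93% and 14.7% against 15.2% and 8.24%. All 3 overlap the RefSeq gene Olfr94, and the region after them, which covers the start printed above, was the one at 40.8% and 45.5% against 39.4% and 44.0%. In Olfr95, 437 bp from 37211197 to 37211633 were at 18.6% and 9.73% in controls and at 5.47% and 13.8% with Cre. The groups overlapped in each of these regions.

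A few other regions stood near 50%. A region of 2628 bp in Olfr658 on chromosome 7 (104644572 to 104647199) was at 48.0% and 48.4% in controls and at 55.9% and 47.5% with Cre. A region of 2415 bp on chromosome 11 (49088459 to 49090873) that carries the name Olfr56 averaged 50.4%. It overlaps the interferon-induced gene Ifi47 and no RefSeq Olfr gene. The name Olfr56 stands on 33 regions, more than any other receptor name, some of them over other genes. Without it, the family mean was 80.3%.

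The highest region was in Olfr1055 on chromosome 2 (86341994 to 86346747), at 98.0% and 96.2% in controls and at 94.3% and 98.4% with Cre. Next came 974 bp in Olfr283 on chromosome 15, at 95.6% on average, then regions in Olfr543 at 94.0% and Olfr533 at 93.9%.

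Receptors of textbook use lay inside the band of the family, by the mean over their regions. Olfr16, known as MOR23 and also present in sperm, was at 77.7% and 77.3% in controls and at 78.7% and 78.9% with Cre. Olfr17, the P2 receptor used in studies of axon guidance, was at 84.6% and 74.9% against 77.0% and 77.2%, so its control libraries differed from each other more than the groups did. Olfr78, a class I receptor of blood vessels and the carotid body, was at 82.9% and 83.6% against 80.1% and 83.5%. Means over the 4 libraries were 78.9% for Olfr1507 (MOR28), 79.1% for Olfr151 (M71), 81.0% for Olfr2 (I7), 81.5% for Olfr73 (mOR-EG, a eugenol receptor), 82.1% for Olfr558, a class I receptor, and 86.5% for Olfr544, also class I. No region is named Olfr160. None of these 9 genes passed the test (limma adjusted p = 0.960 for Olfr16 and 0.999 for the other 8).

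Among the 31 genes with 3 or more regions, the lowest means were those of Olfr94 at 13.7%, Olfr95 at 47.6%, Olfr658 at 60.5% and Olfr750 at 72.6%. The highest were those of Olfr279 at 90.1%, Olfr324 at 88.8%, Olfr281 at 88.1% and Olfr544 at 86.5%. Olfr279 and Olfr281 lie in the same cluster of chromosome 15. In 352 genes with exactly 2 regions, the region on the side of the gene start averaged 80.6% and the other 81.3%. The difference of -0.738 points had this sign in 4 of 4 libraries (exact sign-flip permutation p = 0.125, the smallest it can give), with 187 genes lower there and 165 higher. Regions on the start side were also longer, with a median of 5652 bp against 5173 bp, and no allowance was made for length.

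The receptor genes fell into 48 clusters when a gap of over 1 Mb between Olfr regions ended a cluster. Clusters are named here by chromosome and a letter in order along it. Of these, 28 held 10 or more regions, with 1484 regions and 1036 genes between them, and 7 were a single region. The largest, 2b on chromosome 2 (85327249 to 90282586), held 279 regions and 218 genes. Cluster 7e on chromosome 7 (102473350 to 105371741) held 180 regions and 118 genes, and it is the cluster of class I receptors that surrounds the beta-globin genes.

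The clusters described from here on are the 28 with 10 or more regions. Their means ran from 73.6% to 87.1%, a range of 13.5 points, while the SD of a cluster mean over the 4 libraries had a median of 0.422 points (range 0.189 to 1.29). Over all 48 clusters, with the 7 of a single region included, cluster membership held 18.5% of the variance between regions. Among the 1174 regions of 4000 bp or more it held 27.0%. The number of clusters by itself adds to such a share, and no allowance was made for that. Cluster means of any 2 libraries were correlated at r between 0.957 and 0.982 over the 28 clusters, which share their libraries and regions, so this is a description.

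The lowest of the 28 were 17b, 2a and 9a. Cluster 17b, in the extended class I region of the major histocompatibility complex on chromosome 17 (37083511 to 38335615, 72 regions), was at 73.6% and 74.1% in controls and at 73.2% and 73.6% with Cre. It holds Olfr94 and Olfr95, and its 66 regions of 2000 bp or more averaged 78.3%. Cluster 2a (36372877 to 37338496, 35 regions) was at 73.2% and 74.9% against 73.9% and 73.6%. Cluster 9a (18752791 to 20338084, 51 regions) was at 73.6% and 74.0% against 74.4% and 74.3%. With regions of 2000 bp or more only, 2a and 9a were the lowest, at 73.4% and 73.7%, and other regions of that length inside their spans averaged 77.5% and 76.8%.

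The highest of the 28 were 15a, 1b and 6c. Cluster 15a (26 regions, 9 genes, Olfr288 to Olfr279) was at 86.4% and 87.1% in controls and at 87.95% and 87.0% with Cre. Its regions were short, with a median of 1839 bp, and the 12 of 2000 bp or more averaged 83.9%. Cluster 1b, which begins with Olfr16, averaged 84.0%, and 6c, which holds Olfr212, averaged 83.7%. All 26 regions of 1b were of 2000 bp or more. Cluster 6c held only 10 regions, and the 7 of 2000 bp or more averaged 80.7%. Clusters with shorter regions tended to be higher, with r of -0.586 between median length and level over the 28 clusters, given as a description.

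Some clusters of the same chromosome differed in level and others did not. On chromosome 2, cluster 2a differed from 2b by -7.77 points and from 2c by -6.98 points, in 4 of 4 libraries, while 2b and 2c differed by 0.795 points. On chromosome 9, cluster 9a differed from 9b by -7.14 points. On chromosome 7, the class I cluster 7e lay 3.11 points above its neighbour 7f, which holds class II receptors, while 7g and 7e differed by -0.215 points with a sign that changed between libraries. Each of these differences other than that of 7g and 7e had the same sign in 4 of 4 libraries (exact sign-flip permutation p = 0.125, the smallest it can give), and the pairs were chosen after the values were seen.

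From low to high, the clusters were ordered 17b, 2a, 9a, 11e, 16c, 19a, 7f, 7a, 14b, 10b, 7c, 1a, 16d, 13a, 2c, 10a, 9b, 4a, 2b, 7g, 7e, 11a, 6b, 11d, 4d, 6c, 1b and 15a. Neighbours in this order had the same sign of difference in all libraries only from 9a to 7f, from 10b to 7c, from 7e to 6b and from 1b to 15a. The other neighbours changed order between libraries. In 17 of the 28 clusters the Olfr regions of 2000 bp or more lay below the other regions of that length in the same span.

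**Figure D2:**
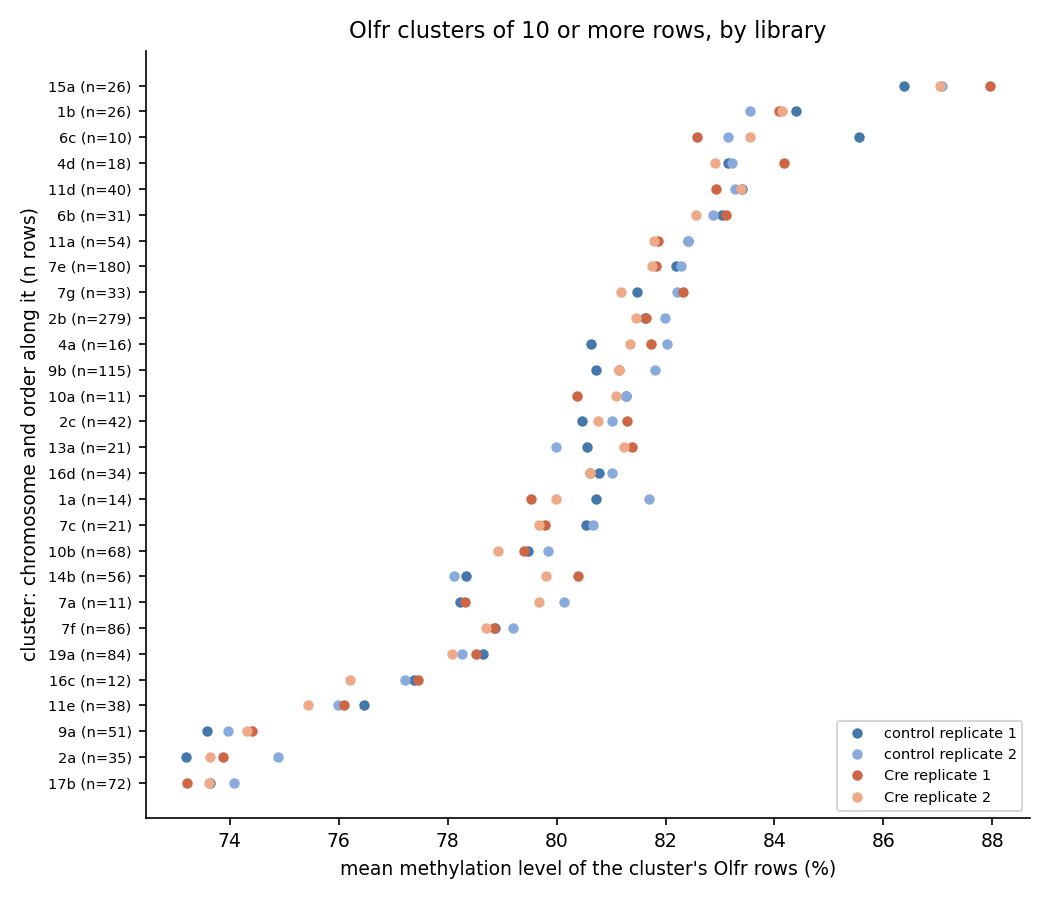
Mean methylation level in percent of the Olfr regions in each of the 28 clusters of 10 or more regions, ordered by level, with 1 point per library and the number of regions beside each name. Clusters run from 73.6% (17b) to 87.1% (15a), and in 14b both Cre libraries lie to the right of both control libraries.

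The spread between libraries was much like that of other regions. The SD over the 4 libraries had a median of 2.24 points (quartiles 1.63 and 3.02) for Olfr regions and 2.28 points (1.51 and 3.28) for other autosomal regions. Within a group, the 2 control libraries differed by a median of 2.47 points and the 2 Cre libraries by 2.45 points. Other regions differed by 2.43 and 2.38 points. An SD over 5 points was found in 42 Olfr regions (2.72%) and in 6.87% of the others, without regard to length. Among regions of 4000 bp or more it was found in 2.30% of the Olfr regions and 2.88% of the others. There the median SD was 2.25 points for Olfr regions and 2.14 for the others.

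By length, the median SD of Olfr regions was 3.25 points under 500 bp (6 regions), 2.04 at 500 to 999 bp, 2.58 at 1000 to 1999 bp, 2.08 at 2000 to 3999 bp, 2.25 at 4000 to 7999 bp and 2.22 at 8000 bp or more. For other regions it was 0.716, 2.38, 2.64, 2.31, 2.13 and 2.29 points in the same order. At like levels, without matching for length, the Olfr regions had the lower median in each class of 5 points between 70% and 90%. The median SD was 2.64 against 3.03 points at 70 to 75% and 2.30 against 2.75 at 75 to 80%. It was 2.18 against 2.44 at 80 to 85% and 1.997 against 2.14 at 85 to 90%. At 90 to 95% it was 2.02 against 1.80 points.

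**Figure D3:**
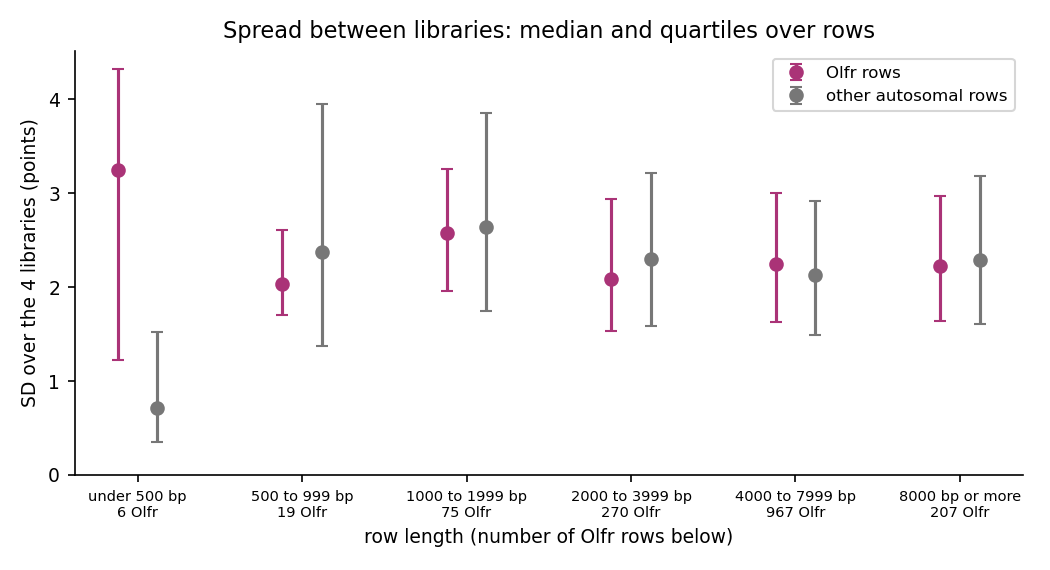
SD of the level over the 4 libraries, in percentage points, by region length in bp, with the median (points) and quartiles (bars) over Olfr regions and over other autosomal regions. The medians of both kinds lie between 2.04 and 2.64 points in each class from 500 bp up, and only under 500 bp, with 6 Olfr regions, are they far apart.

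The widest spread was that of a region of 7996 bp in Olfr247 on chromosome 10 (129969610 to 129977605). It was at 64.9% and 91.3% in controls and at 85.4% and 62.0% with Cre, an SD of 14.6 points. Both groups had 1 high and 1 low library. A region named Olfr56 on chromosome 11 (49027754 to 49034000), over no RefSeq gene, was at 84.2% and 83.1% against 84.1% and 67.5%, so 1 Cre library stood apart. A region of 39626 bp at Olfr1506 on chromosome 2 had an SD of 12.5 points and is described with the group differences.

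The group difference was tested by limma on logit-transformed levels over all 849014 regions with complete values, and 0 Olfr regions passed. With Benjamini-Hochberg adjustment over all of them, 0 of 1544 Olfr regions were called, against a background of 0% of all regions, and the smallest adjusted p of an Olfr region was 0.937. At an unadjusted p under 0.05, 15 of the 1544 Olfr regions lay higher with Cre and 18 lower. The background over all regions was 2.25% higher and 2.35% lower, so both counts lay under that share. Both Cre libraries were above both control libraries in 198 Olfr regions (12.8%, background 15.9%) and below both in 273 (17.7%, background 16.8%). Differences of 5 points or more were found upward in 44 (background 4.85%) and downward in 57 (background 4.65%). In all, 745 had a higher mean with Cre and 799 a lower one (median -0.165 points), against -0.0214 over all regions and -0.154 over other autosomal regions of 4000 bp or more. Among regions of 4000 bp or more, 9 of 1174 Olfr regions lay higher and 10 lower at an unadjusted limma p under 0.05. Of 181895 other autosomal regions of that length, 2084 lay higher and 2728 lower. Differences of 5 points or more were in 3.15% of these Olfr regions and 2.65% of the others upward, and in 3.58% and 3.18% downward. Both Cre libraries lay above both controls in 12.6% of these Olfr regions and 15.3% of the others, and below both in 17.7% and 18.2%.

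The region with the smallest p was the long one at Olfr1506 (90192466 to 90232091), which also overlaps the predicted gene Gm38718. It was at 63.6% and 57.1% in controls and at 83.3% and 79.5% with Cre, a difference of 21.0 points (limma unadjusted p = 0.00243, adjusted p = 0.937). This is the longest Olfr region, at 39626 bp, and the number of reads behind its values is unknown. A region of 1527 bp in Olfr750 (chromosome 14, 51069161 to 51070687) was at 87.2% and 88.5% against 94.5% and 96.1%. One in Olfr1496 (chromosome 19, 13771864 to 13782335) was at 79.8% and 77.0% against 86.3% and 88.7%. The groups did not overlap in these, nor in a region of Olfr1359 (chromosome 13, 21703232 to 21705518), at 80.5% and 79.8% against 86.8% and 87.7%. These 4 were taken for the smallest p in this direction.

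In the other direction, a region of the class I gene Olfr609 (chromosome 7, 103489204 to 103493907) was at 90.8% and 90.2% in controls and at 82.8% and 84.1% with Cre. A region of Olfr462 (chromosome 11, 87887896 to 87889780) was at 75.9% and 76.8% against 63.2% and 65.2%, a difference of -12.1 points. A region of the pseudogene Olfr718-ps1 (chromosome 5, 143135988 to 143137491) was at 96.6% and 93.5% against 87.8% and 89.99%. Both Cre libraries lay below both control libraries in these and in a region named Olfr56 (chromosome 11, 49082945 to 49086438), which overlaps Ifi47, at 85.9% and 85.3% against 79.3% and 79.2%. The limma adjusted p of all 8 regions was 0.937, so none passed.

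Averaging regions by gene gave no called gene either. Of 1075 Olfr genes, 0 passed (background 0% of 25181 genes, smallest adjusted p of an Olfr gene by limma = 0.812). At an unadjusted p under 0.05, 51 were higher (background 2.65%) and 62 lower (background 2.65%). Both counts lie above the background share, unlike the counts of Olfr regions and of gene starts at this cut, which lie below theirs. Most Olfr genes are a single region (692) or a pair (352), and the SD over the 4 libraries had a median of 1.97 points for Olfr genes and 0.929 points over all genes. The part of that wider spread in the count was not tested. In all, 502 were higher and 573 lower, with a median of -0.176 points against 0.0253 over all genes. At gene starts, 0 of 932 passed (background 0% of 32807, smallest adjusted p by limma = 0.925), and 9 were higher and 9 lower at an unadjusted p under 0.05 (background 2.63% and 2.61%).

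Among genes with 3 or more regions, the largest differences upward were in Olfr750, Olfr988, Olfr279 and Olfr288, and the largest downward in Olfr95, Olfr212, Olfr576 and Olfr631. Olfr750 was at 69.7% and 72.4% in controls and at 73.3% and 74.9% with Cre, and Olfr988 was at 80.5% and 79.8% against 83.8% and 82.0%. Olfr212 was at 88.7% and 85.9% against 84.4% and 84.0%. Of these 8 genes, the groups did not overlap in Olfr750, Olfr988, Olfr212, Olfr576 and Olfr631. Differences ran from 2.01 to 3.10 points upward and from -2.37 to -3.16 points downward. Leaving out 1 library brought each of these 8 differences closer to 0 by over 1.5 times or, for Olfr279, turned its sign. Without control replicate 1 it was 1.75 points for Olfr750 and -1.66 for Olfr212, and without control replicate 2 it was -0.598 for Olfr279. Without Cre replicate 1 it was 0.0363 points for Olfr288, 1.80 for Olfr988, -0.410 for Olfr95, -1.44 for Olfr576 and -1.16 for Olfr631. None passed (limma adjusted p from 0.939 to 0.999).

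Over the 28 clusters of 10 or more regions, the difference between the group means ran from -1.45 points in 1a to 1.87 points in 14b. It was positive in 8 clusters and negative in 20. In 3 of the 28 (14b, 13a and 9a) both Cre libraries lay above both controls, and in 9 they lay below. Among 1205 bins of 2 Mb over the autosomes the same held for 5.06% upward and 15.9% downward. Each bin held 200 or more regions, all of 2000 bp or more. The clusters held 10 or more Olfr regions of any length, so bins and clusters are not matched in size or region length. Cluster 1a was at 80.7% and 81.7% in controls and at 79.5% and 79.99% with Cre, while other regions of its span differed by -0.103 points. The second largest difference upward among them was 1.04 points in 13a, where other regions differed by 0.14 points.

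**Figure D4:**
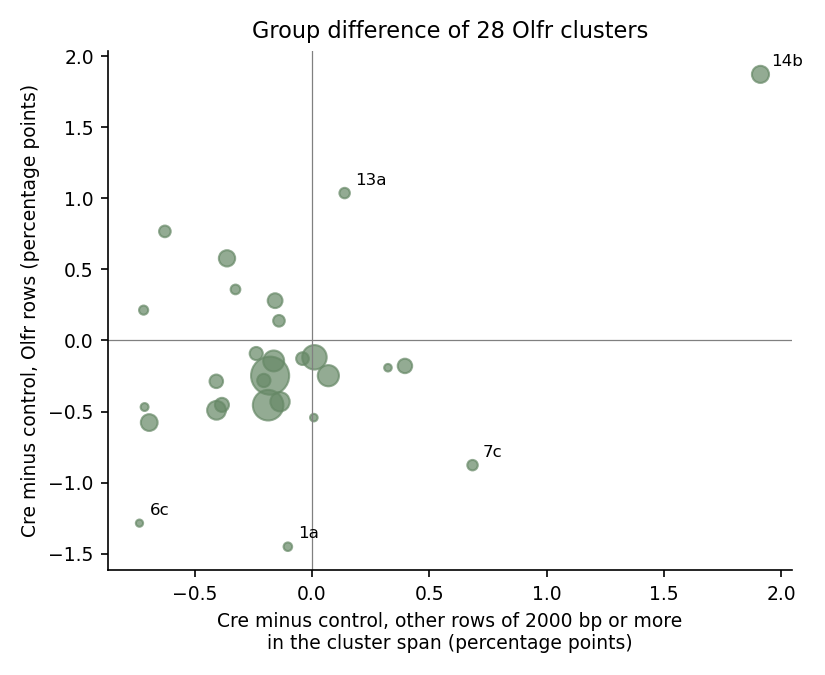
Cre minus control difference in percentage points of the Olfr regions of each of the 28 clusters (vertical) against that of other regions of 2000 bp or more in the same span (horizontal), with larger points for clusters of more regions. Cluster 14b lies apart at 1.87 and 1.91 points, and the other clusters lie between -1.45 and 1.04 points vertically.

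Cluster 14b on chromosome 14 (49890692 to 52498135) held 56 regions and 36 genes, from Olfr722 to Olfr1507. It was at 78.3% and 78.1% in controls and at 80.4% and 79.8% with Cre. The groups averaged 78.2% ± 0.155 and 80.1% ± 0.413 (SD, n = 2 each), and they did not overlap (exact permutation p = 0.333, the smallest it can give). Of its regions, 41 of 56 were higher in the Cre group. Both Cre libraries were above both control libraries in 20 of them and below both in 3, where the background over all regions was 15.9% and 16.8%. The cluster was chosen for its difference, so these are descriptions.

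Other regions at the same place differed by as much. The 499 other regions of 2000 bp or more in the same span were at 79.5% and 80.1% in controls and at 81.7% and 81.8% with Cre, a difference of 1.91 points. Regions in the 3 Mb before the cluster differed by 1.80 points and those in the 3 Mb after it by 1.41 points. The rest of chromosome 14 differed by -0.138 points. Inside that rest, the 2 Mb from 110000000, which hold no Olfr region, differed by -1.71 points, at 82.4% and 79.9% in controls and 79.5% and 79.4% with Cre, so control replicate 1 stood apart there. In bins of 500 kb the difference stayed between 0.964 and 2.25 points over 19 neighbouring bins, from 45694413 to 55194412, a length of 9.5 Mb. It was 0.0644 points in the bin before and -0.146 points in the bin after.

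Libraries of a group also differed inside this stretch. In its first bin control replicate 2 was 2.63 points above replicate 1, more than the group difference of 1.09 points there. In the bins nearest the centre of the cluster the control libraries differed by 0.144 and 0.711 points, and the groups by 1.70 and 2.25 points. Relative to all other Olfr regions of the same library, cluster 14b was at -1.97 and -2.49 points in controls and at 0.0974 and -0.346 points with Cre (exact permutation p = 0.333). Without 14b the family mean differed between the groups by -0.234 points.

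**Figure D5:**
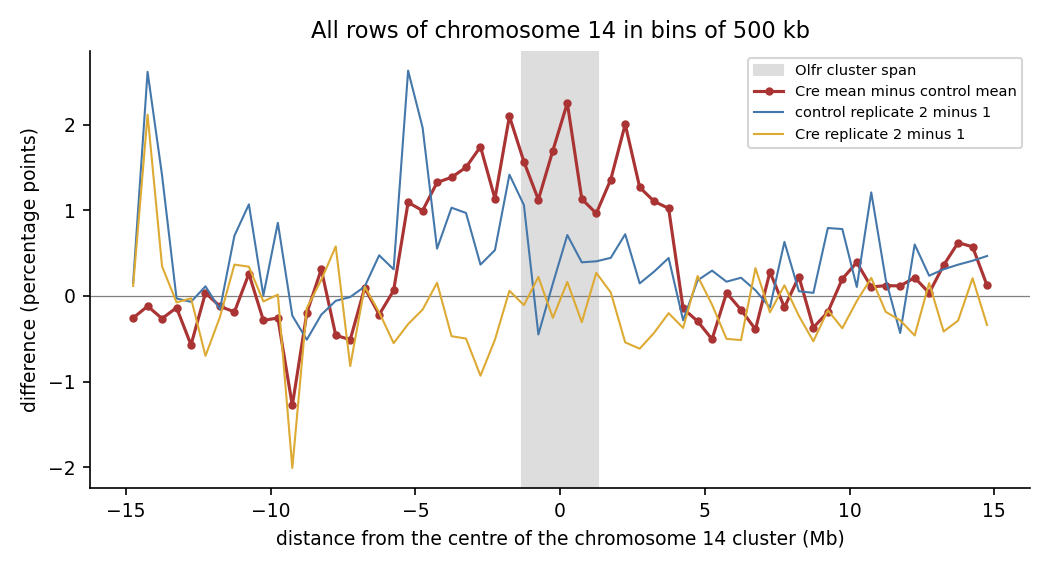
Difference in percentage points over all regions of chromosome 14 in bins of 500 kb, against distance in Mb from the centre of the Olfr cluster 14b (grey span), for Cre minus control and for the libraries within each group. The Cre minus control line stays between 0.964 and 2.25 points over 9.5 Mb, a stretch longer than the cluster, and the control libraries differ by up to 2.63 points at its left edge.

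Genes that carry or control the olfactory signal were read beside the receptors, from a list of 26 of which 25 were named on a region. By limma over all genes 0 of 25 passed. At an unadjusted p under 0.05, 1 was higher and 1 lower, where the background was 2.65% in each direction. Cnga4, a subunit of the olfactory cyclic nucleotide-gated channel, was at 90.1% and 89.2% in controls and at 92.8% and 91.9% with Cre. Rtp2, a chaperone that brings receptors to the cell surface, was at 83.3% and 84.6% against 79.98% and 80.9%. The limma adjusted p was 0.830 and 0.833. In all, 14 of the 25 were higher and 11 lower, with a median of 0.184 points against 0.0253 over all genes.

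By level, the lowest of the list were the homeodomain factors Emx2 at 18.1% and Lhx2 at 23.8%, and the highest were Rtp1, another receptor chaperone, at 88.2% and Cnga4 at 91.0%. Methylation does not measure transcription, so the tissue label could not be checked by it. Markers of olfactory sensory neurons, 7 of 8 named on a region, were at 32.2% to 91.0%. Markers of CA1 pyramidal neurons, 7 of 7, were at 4.84% to 74.4%, and 0 of either list passed the limma test. All 7 CA1 markers had the higher mean with Cre (median 0.824 points, against 0.0253 over all genes), as did 5 of the 7 olfactory neuron markers (median 0.348).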

How the data were processed

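DNA methylation was measured in 4 libraries by whole-genome bisulfite sequencing with paired reads of 150 bp, per the labels' protocols. The authors deposited 1 percent value (a methylation level) for each region in each library. The submitters' processing notes name mm10 as the build and, without roles, Bismark 0.19.0, Trim Galore 0.4.5, edgeR and FastQC 0.11.5. How regions were drawn, how CpGs were averaged and any coverage minimum are not stated in the labels or the file, so depth is unknown and thinly covered regions weigh as much as others.

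Libraries were grouped by their titles. Of 849172 regions, 158 lacked a value and were left out. The test was limma (version 3.58.1, under R 4.3.3), fitted to log2((level + 0.01) / (1 - level + 0.01)) for regions, for genes (mean over regions of a name) and for gene starts (mean over regions touching 250 bases before to 50 after a RefSeq start, GRCm38.p6), with Benjamini-Hochberg adjustment at 0.05 over all features. Single values were compared by exact permutation over 6 arrangements of libraries, or over 16 sign flips within libraries. Of 1075 Olfr names, 1067 matched RefSeq. On simulated levels of 25181 genes, 200 Olfr genes were lowered. The gene test found 0% of these 200 when the shift was 10 points, 69% when it was 20 and 80.5% when it was 30. It called 0, 12 and 9 unchanged genes. Each simulated gene took a spread drawn from all genes of like level, not its own. Real Olfr genes spread more (median SD 1.97 points, against 0.929 over all genes), so these shares may overstate what the test finds among them.

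Replicate differences of the 2 groups were correlated at r = 0.00648 over all regions and -0.0431 over Olfr regions. Noise of single regions at unknown depth could hide a shared batch, so this cannot exclude a pairing by replicate number. The main limma fit took the libraries as unpaired. Named genes were receptors of textbook use, the 4 lowest and 4 highest genes and the 4 largest differences in each direction among genes with 3 or more regions, the 4 regions of smallest p in each direction, the 3 of largest SD, and the pathway list. Members and lists were chosen with earlier results of these data known. Alternatives were the scale and prior of the test, a replicate block, region length, region weights, other comparison regions, the gap between clusters, and leaving out each library. In the last, a lone library was assumed to vary like the other group.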

Additional observations from a re-analysis of the deposited data

How the results depend on the processing

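No Olfr region, gene or gene start passed under any alternative run, including the replicate block (0 of each) and leaving out any library (0 to 0). Over all features 5 of 805142 regions of 500 bp or more and 8 of 32844 starts with a window of 2000 bases before to 500 after passed. The difference of means between Olfr and other regions (4.55 points) turned to -1.36 with length-weighted means. It turned to -1.29 with length-matched and to -0.332 with neighbouring regions, the last chosen after seeing the data. It was 1.12 with regions of 500 bp or more, 13.2 with 1 value per gene, and 4.51 to 4.58 without 1 library. The range of cluster means fell from 13.5 to 10.6 points with regions of 2000 bp or more, chosen after seeing the data, was 13.1 to 13.7 without 1 library, and did not move with a gap of 0.5 or 2 Mb. The median spread was 2.46 points as an absolute difference and 2.06 to 2.17 without 1 library, where the SD is over 3. The family difference was -0.295 to -0.0204 points without 1 library and -0.158 with the replicate block. Cluster 14b was at 1.58 to 2.16 points without 1 library, 1.61 length-weighted and 1.80 with regions of 2000 bp or more, all chosen after seeing the data. Leaving out 1 library turned the Olfr247 region (-4.40 points) to 8.77 without control replicate 2 (range -17.6 to 8.77) and 7.26 without Cre replicate 2, the Olfr56 region at 49027754 (-7.85) to 0.469 without Cre replicate 2 (range -16.2 to 0.469), and the gene Olfr279 (2.03) to -0.598 without control replicate 2 (range -0.598 to 4.65). Beyond the length weighting and the left-out libraries, the cause was not tested.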

Other observations

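Receptor genes outside the rule were counted from RefSeq. Of 1420 autosomal Olfr genes there, 1063 lie in regions with their own name, 50 in regions named for another Olfr gene, 264 in regions with no gene name (252 of these are pseudogenes), 41 in regions named for another gene, and 2 in no region. Most receptor loci in unnamed regions are thus pseudogenes. Taking all regions over RefSeq Olfr genes, a choice made after seeing the data, gave a family difference between the groups of -0.138 points.

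The stretch around cluster 14b was set beside the rest of the genome. Of the 1205 autosomal bins of 2 Mb used above, 11 (0.913%) differed between the groups by 1 point or more in either direction. Of the 62 bins that hold Olfr regions, 3 did, and all 3 belong to the stretch of chromosome 14 around that cluster.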
